A study of Mus musculus with 6 samples.

Results

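The genes described here are 5 NF-kB subunits (Nfkb1, Nfkb2, Rel, Rela and Relb) and 5 of their regulators (Nfkbia, Nfkbid, Nfkbiz, Bcl3 and Tnfaip3). They were taken by symbol, and all 10 were among the 32285 rows of the count table and among the 17307 genes tested. The data were bulk RNA-seq of splenic CD4+CD25+ Tregs, with 3 libraries from Zfp335-deficient mice (KO) and 3 from control mice (WT), all labelled C57BL/6. KO mice carried ERCre and homozygous floxed Zfp335, where ERCre is a Cre recombinase fused to a mutant estrogen receptor domain that enters the nucleus when tamoxifen is given. The labels call the controls wild-type littermates, and tamoxifen is not named there. The study's methods describe the controls of this cross as ERCre mice with wild-type Zfp335, and describe 3 tamoxifen doses (days 1, 3 and 5) from an age of 6 weeks, with tissue taken on day 7. The promoter behind ERCre is not given in the sources used here, and the deletion is not described as limited to Tregs. Whether each library came from a separate mouse is not stated, so p-values measure the spread between these libraries, which may be technical.

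NF-kB proteins bind DNA as dimers. In resting cells inhibitors of the IkB family hold these dimers in the cytoplasm, and signals from the T-cell receptor, CD28 or TNF receptors activate the IKK kinases, which mark the inhibitors for degradation. Several inhibitors are themselves NF-kB target genes, which gives the pathway negative feedback. In Tregs, c-Rel, the product of Rel, is known for its part in Foxp3 induction and, with RelA, in the effector Treg state.

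The libraries held between 133283969 and 209041812 counts, and the 10 genes had between 13840 counts (Relb in WT replicate 3) and 766784 counts (Tnfaip3 in KO replicate 2). PCR reads without molecular identifiers are not independent molecules, and the spread between libraries rather than counting error sets the precision here. Zfp335 fell from 120.1 ± 4.67 CPM in WT to 14.8 ± 0.451 CPM in KO (SD, n = 3 each). Xist, the RNA that silences an X chromosome in females, was at 0.272 ± 0.132 CPM in WT and 134.6 ± 10.4 CPM in KO, while Y-linked genes were counted in all 6 libraries. Of these, Ddx3y (102.7 ± 3.88 and 78.7 ± 1.81 CPM in WT and KO), Kdm5d (43.5 ± 1.19 and 35.96 ± 0.922 CPM) and Uty (17.4 ± 0.248 and 11.9 ± 0.351 CPM) fell, and Eif2s3y was at 46.6 ± 2.85 and 46.9 ± 1.46 CPM (adjusted p = 0.900 by edgeR). Each KO library thus held both Xist and Y-linked RNA, and whether libraries pooled mice of both sexes is not stated. For any gene below, a difference in the sex of the mice, or in a mix of sexes, cannot be told apart from the loss of Zfp335. The same holds for ERCre and for tamoxifen, if the controls did not have both. Deletion in cells other than Tregs cannot be told apart from deletion in Tregs either. The part of each in the results was not tested. The defining Treg markers Foxp3 (1136 ± 17.4 and 1052 ± 9.24 CPM in WT and KO) and Il2ra (479.6 ± 16.0 and 433 ± 5.99 CPM) were high in both groups (SD, n = 3 each). Of 9 Treg markers 1 rose (Ctla4, log2 fold change 0.65) and 2 fell (Foxp3 and Il2ra), against 12.0% and 12.1% of all genes tested. Foxp3 lost its call when any 1 of the KO replicates was left out, and Il2ra without KO replicate 2.

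Promoters of the RefSeq annotation (GRCm38.p6) were given for 7 of the 10 genes, with several start sites for 3 of them. The 250 bases before each start were searched on both strands for the NF-kB consensus motif, whose sites may overlap. At least 1 promoter held a match in 5 of the 7 genes (Nfkb2, Nfkbia, Nfkbid, Rel and Tnfaip3), against 10.5% of the 12380 genes tested that had a promoter in the table. Among promoters, 7 of 12 held a match, against 7.25% of all 32851. The promoters of Rela and Bcl3 did not hold these letters in this window. The 30-base stretches around matches of Rel, Tnfaip3, Nfkbia and Nfkb2, which rose in KO as described below, are shown 5′ to 3′ in the direction of transcription, with the matched bases in capitals. Nfkb2 holds further matches that are not shown. The matches of Nfkbid, which also rose, are not shown either and lie in only 1 of its several promoters.
Rel: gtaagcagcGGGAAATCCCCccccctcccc
Tnfaip3, farther match: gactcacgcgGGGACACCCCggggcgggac
Tnfaip3, nearer match: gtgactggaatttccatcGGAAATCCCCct
Nfkbia: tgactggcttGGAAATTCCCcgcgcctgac
Nfkb2: gatcgtcacGGGAATTCCCCccctcggggg
The stretches lie at chr11:23771041-23771070 (minus strand) for Rel, at chr10:19015516-19015545 and chr10:19015411-19015440 (minus strand) for Tnfaip3, at chr12:55492657-55492686 (minus strand) for Nfkbia and at chr19:46304689-46304718 (plus strand) for Nfkb2. In Rel and in Nfkb2, 2 overlapping matches make up the capitals. A match describes the letters and does not show that a factor binds there.

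NF-kB genes were higher in Zfp335-deficient Tregs. Of the 10 genes, 8 rose in KO and 0 fell at an adjusted p under 0.05 (edgeR's quasi-likelihood test, Benjamini-Hochberg adjustment over all genes tested). Of all genes tested, 12.0% rose and 12.1% fell by the same rule. The 10 genes were chosen with earlier results of these data known, so these counts are a description. In every KO library 9 of the 10 genes lay above every WT library, against 19.3% of all genes tested, and 0 lay below, against 19.1%. Their median log2 fold change was 0.35, against -0.0042 over all genes tested. With library size as the only scaling, 1622 genes rose and 2575 fell across the table, against 2082 and 2088, and still 8 of the 10 NF-kB genes rose. The number of genes that rose across the table was 1341 without WT replicate 2 and 1386 without KO replicate 2, again with 8 of the 10 NF-kB genes among them. At the cutoffs that the study used for its Foxp3Cre libraries, which ask for a change of 1.5-fold or more besides a p under 0.05 and an adjusted p under 0.1, 2 of the 10 genes rose, Rel and Tnfaip3, against 2.58% of all genes tested.

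**Figure D1:**
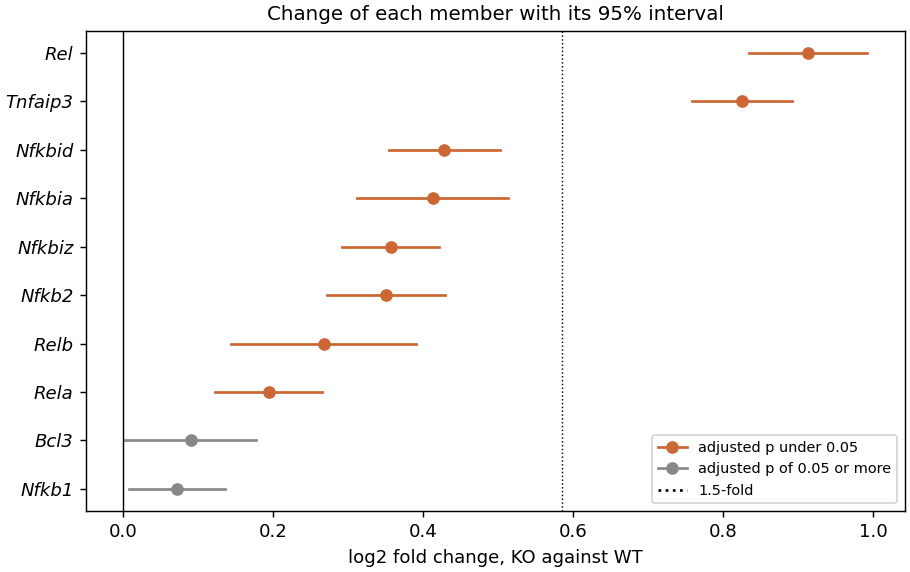
Log2 fold change of each NF-kB gene in KO against WT (horizontal axis), with its 95% interval from edgeR's quasi-likelihood fit as a line, for 3 libraries against 3. Rel at 0.91 and Tnfaip3 at 0.82 lie past the dotted line at 1.5-fold, and the grey genes, Bcl3 and Nfkb1, did not pass an adjusted p of 0.05.

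Among the subunits, Rel changed most. It lies at chr11:23736847-23770970 on the minus strand (GRCm38) and encodes c-Rel, a subunit with its own transactivation domain. Rel was at 158, 163 and 158 CPM in WT replicates 1, 2 and 3 and at 291, 297 and 314 CPM in KO replicates 1, 2 and 3. The lowest KO library was far above the highest WT library, and KO replicate 3 was the highest of all. The mean went from 159 ± 2.63 to 300.4 ± 12.1 CPM (SD, n = 3 each), a 1.88-fold rise, which is 0.91 on the log2 scale (standard error, SE, 0.036, adjusted p = 1.56e-09 by edgeR). Its stretch of promoter with 2 overlapping NF-kB motif matches is shown above.

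Rela, at chr19:5637483-5648130, encodes RelA, the transactivating partner in the most common NF-kB dimer. Its level was 219, 207 and 211 CPM in the WT libraries and 246, 242 and 239.9 CPM in the KO libraries. The groups did not overlap, but the step was small against that of Rel. The log2 fold change of Rela was 0.19 (SE 0.033, adjusted p = 0.000857 by edgeR).

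Nfkb1, at chr3:135584655-135691547, encodes the p105 precursor of p50, which lacks a transactivation domain. Its span holds the gene model Gm43430 on the same strand, and how reads there were shared is uncertain. Nfkb1 was at 582, 577 and 591 CPM in WT and at 611, 618 and 611 CPM in KO. Each KO library was above each WT library by a few percent of the level. The log2 fold change of 0.072 (95% interval 0.0073 to 0.14, SE 0.030) did not pass the threshold, with an edgeR adjusted p = 0.103. DESeq2 gave 0.073 with an adjusted p = 0.0308, its only call in the 15 alternative fits, and library size only gave 0.041 with an adjusted p = 0.363.

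Nfkb2 and Relb belong to the non-canonical branch, in which the p100 product of Nfkb2 holds RelB until it is processed to p52. Nfkb2 (chr19:46304320-46312385) was at 210.2, 204 and 194 CPM in WT and at 261, 262 and 253 CPM in KO. Its log2 fold change was 0.35 (SE 0.036, adjusted p = 1.26e-05 by edgeR), with a clear gap between the groups. Relb (chr7:19606217-19629438) was at 123, 108 and 103 CPM in WT and at 138, 134 and 129 CPM in KO. WT replicate 1 came close to the lowest KO library, and the WT libraries had the widest relative spread of any subunit. The log2 fold change of Relb was 0.27 (SE 0.056, adjusted p = 0.00457 by edgeR), and with each library left out in turn it was between 0.22 and 0.34 and passed the threshold each time. Nfkb2 overlaps the protein-coding gene Psd, which runs in the opposite direction. No source used here says whether counting used strand, so reads of Psd within the overlap cannot be told apart from its own.

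**Figure D2:**
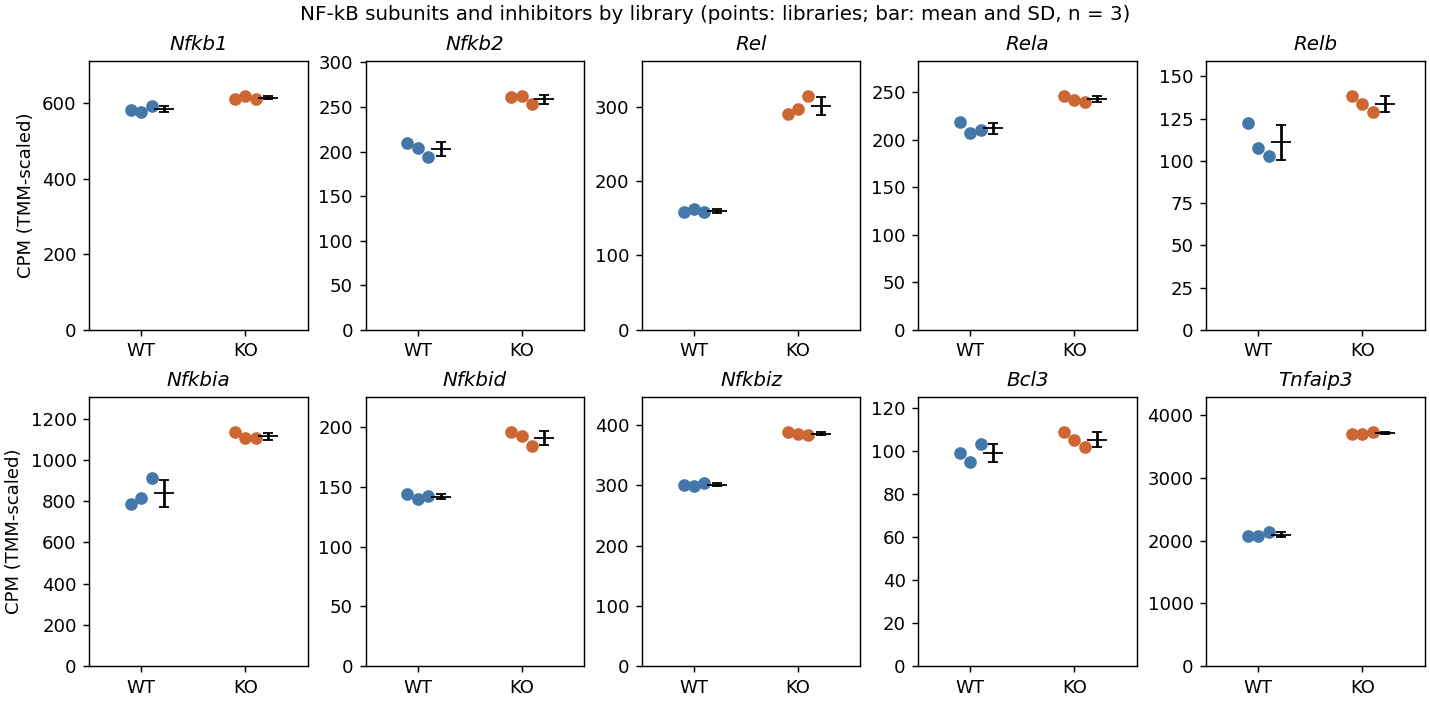
CPM of each NF-kB gene (vertical axis, starting at 0, with its own scale in each panel) in the 3 WT and 3 KO libraries; points are libraries and the black bar is the mean with its SD. Rel and Tnfaip3 show the widest gaps between groups, and Bcl3 is the gene whose groups overlap, with WT replicate 3 at 103 CPM and KO replicate 3 at 102 CPM.

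Of the 5 regulators, 4 rose, and Bcl3 did not pass the threshold. Tnfaip3, at chr10:19000910-19015657 on the minus strand, encodes A20, a ubiquitin-editing enzyme that shuts off IKK activation. Of its 2 promoters in the table, 1 holds the pair of separate matches shown above and the other holds 0. Tnfaip3 was at 2067, 2083 and 2139 CPM in WT and at 3711, 3697 and 3732 CPM in KO, with little spread within either group. The mean went from 2096 ± 37.7 to 3714 ± 17.4 CPM (SD, n = 3 each), a 1.77-fold rise with a log2 fold change of 0.82 (SE 0.031, adjusted p = 8.41e-10 by edgeR).

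Nfkbia, at chr12:55489410-55492647 on the minus strand, encodes IkBα, the classical cytoplasmic inhibitor and a rapid feedback target. It was at 788, 816 and 912 CPM in WT and at 1136, 1106 and 1106 CPM in KO. The 3 KO libraries were close together, while WT replicate 3 stood above the other WT libraries and still below every KO library. The log2 fold change of Nfkbia was 0.41 (SE 0.046, adjusted p = 2.74e-05 by edgeR), a rise by 33.1%.

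Nfkbid, Nfkbiz and Bcl3 encode nuclear IkB proteins, which bind p50 or p52 on DNA and can raise or lower transcription. Nfkbid (chr7:30421732-30428746) encodes IkBNS, which is known to promote Foxp3 expression in developing Tregs. It was at 144, 139.8 and 142 CPM in WT and at 196, 192 and 184 CPM in KO, a log2 fold change of 0.43 (SE 0.034, adjusted p = 1.15e-06 by edgeR). Nfkbiz (chr16:55811375-55838899), which encodes IkBζ, was at 300.7, 299 and 305 CPM in WT and at 389, 386 and 383 CPM in KO. Its log2 fold change was 0.36 (SE 0.030, adjusted p = 1.76e-06 by edgeR), and both genes kept a clear gap between groups. Bcl3 (chr7:19808462-19822770) stood apart from these. It was at 99.1, 94.7 and 103 CPM in WT and at 109, 105 and 102 CPM in KO, with WT replicate 3 above KO replicate 3. Its log2 fold change of 0.090 (95% interval 0.0028 to 0.18, SE 0.040) did not pass the threshold, with an edgeR adjusted p = 0.131. With each library left out it was between 0.059 (adjusted p = 0.430 by edgeR, without WT replicate 2) and 0.12 (adjusted p = 0.0434, without WT replicate 3), and with library size only it was 0.059 (adjusted p = 0.320). Removing WT replicate 3 gave its only call in the 15 alternative fits. Bcl3 overlaps the antisense genes Gm16174 and Gm16175, so its counts carry the same uncertainty as those of Nfkb2.

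For single genes, an exact two-sided permutation test over 3 against 3 libraries cannot give a p under 0.1. That smallest value was reached by the 9 genes whose groups did not overlap, and Bcl3 gave an exact p = 0.2.

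Levels between genes were set side by side per kb of exon, counted over the merged exons of all annotated transcripts, which understates genes with long, little-used exons. In WT, Nfkbia was highest at 521 ± 40.2 CPM per kb and Tnfaip3 followed at 290.1 ± 5.22 (SD, n = 3 each). Rela came next at 69.1 ± 1.95, followed by Nfkbid at 60.5 ± 0.822 and Nfkbiz at 60.1 ± 0.573, which overlapped. Below them came Nfkb1 (48.4 ± 0.593), Nfkb2 (44.3 ± 1.77), Bcl3 (39.96 ± 1.67), Relb (28.6 ± 2.65) and, lowest, Rel (21.4 ± 0.352). The inhibitors Nfkbia and Tnfaip3 were thus well above every subunit. In KO, Rel reached 40.2 ± 1.63 CPM per kb, above Relb (34.4 ± 1.17) and overlapping Bcl3 (42.5 ± 1.36). Nfkbid (81.3 ± 2.47) and Rela (79.0 ± 1.02) overlapped in KO. Nfkb2 (56.4 ± 1.08) was above Nfkb1 (50.9 ± 0.338) in KO, the reverse of their order in WT. The exon length used was 12.061 kb for Nfkb1, the longest among these genes, and 4.584 kb for Nfkb2. In counts, Nfkb2 stayed below Nfkb1 in KO, at a ratio of 0.422 ± 0.00660 (SD, n = 3). The place of Nfkb1 in both groups, and the reversal, thus depend on the lengths used. So does the place of Rel, with 7.466 kb of exon against 3.885 kb for Relb and 2.475 kb for Bcl3. In CPM, Rel (159) was above Relb (111) and Bcl3 (98.9) in WT already.

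**Figure D3:**
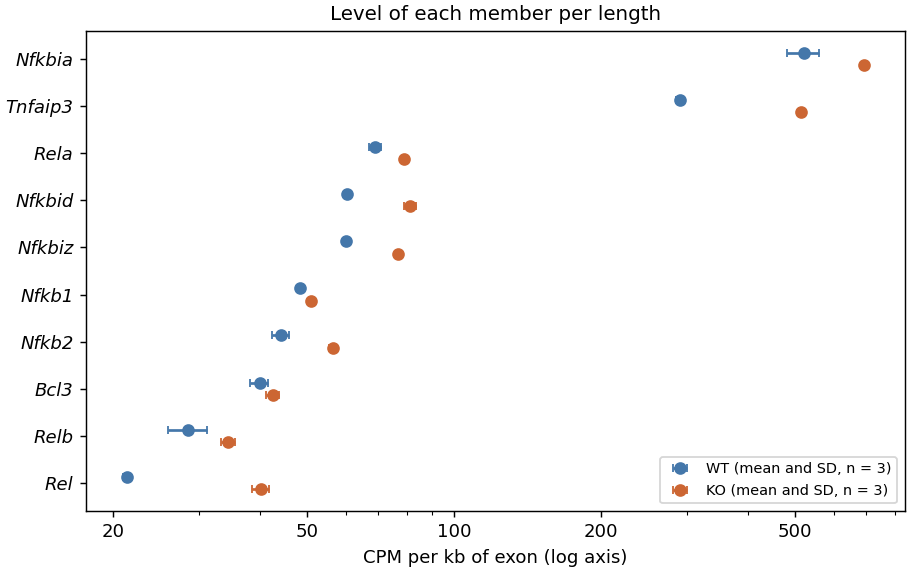
Level of each NF-kB gene in CPM per kb of exon (horizontal log axis) in WT and KO; points are means and lines the SD of 3 libraries. Nfkbia and Tnfaip3 are highest in both groups, and Rel moves from 21.4 in WT, the lowest level per kb, to 40.2 in KO.

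The counts of the genes were also set side by side as ratios. The ratio of 2 genes' counts within a library does not depend on scaling, and 6 such ratios were chosen after the values were seen, so their directions are a description. Rel counts divided by Rela counts gave 0.721, 0.785 and 0.751 in the WT libraries and 1.18, 1.23 and 1.31 in the KO libraries. So Rel had fewer counts than Rela in each WT library and more in each KO library. Counts are not corrected for length, so only the shift between groups can be read from these ratios. Per kb of exon, Rel stayed below Rela in KO as well (40.2 and 79.0 CPM per kb). Rel over Nfkb1 went from 0.273 ± 0.00733 to 0.490 ± 0.0211, and Nfkb2 over Nfkb1 from 0.348 ± 0.0172 to 0.422 ± 0.00660 (SD, n = 3 each). Among the inhibitors, Tnfaip3 over Nfkbia went from 2.51 ± 0.144 to 3.33 ± 0.0542. Nfkbia over Rela, an inhibitor against the subunit it retains, went from 3.96 ± 0.363 to 4.60 ± 0.0243. For these 5 ratios the groups did not overlap. Because the pairs were picked by their values, this is a description and no p-value is given. Relb over Rela was 0.523 ± 0.0361 in WT and 0.551 ± 0.0118 in KO, and its groups overlapped.

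**Figure D4:**
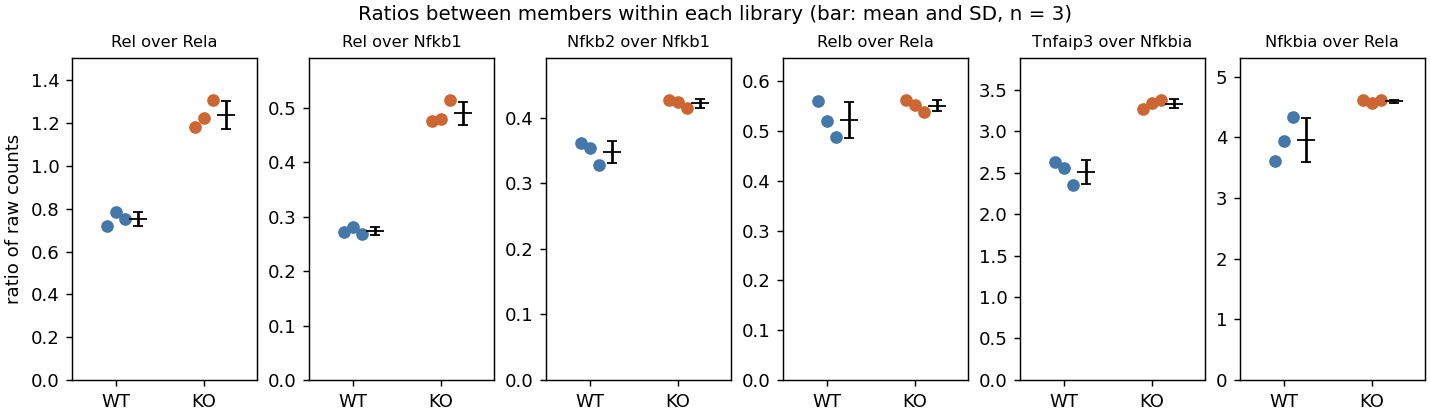
Ratio of the raw counts of 2 NF-kB genes within each library (vertical axis, starting at 0) for 6 pairs in WT and KO; points are libraries and the black bar is the mean with its SD. Rel over Rela moves from at most 0.785 in WT to at least 1.18 in KO, and only Relb over Rela has overlapping groups.

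Further genes of the pathway were described from lists of known genes, 9 of which stand in more than 1 list. These lists too were chosen with earlier results of these data known. The other brakes on NF-kB were mixed. Of 18 genes, 5 rose and 4 fell, against 12.0% and 12.1% of all genes tested, with a median log2 fold change of 0.062 against -0.0042 over all genes tested. Zc3h12a, which encodes the RNase Regnase-1, rose most, from 122.5 ± 5.28 to 216 ± 3.95 CPM (SD, n = 3 each, log2 fold change 0.82, SE 0.037, adjusted p = 5.55e-09 by edgeR). The remaining cytoplasmic IkB genes rose less, with log2 fold changes of 0.25 for Nfkbib and 0.22 for Nfkbie (edgeR adjusted p = 0.000949 and 0.00315). Cyld, a deubiquitinase, fell by 0.14 on the log2 scale (edgeR adjusted p = 0.0248), Nlrc3 by 0.13 (adjusted p = 0.0148) and Pdlim2 by 0.13 (adjusted p = 0.0327). These 3 calls were not stable. Cyld lost its call without WT replicate 2 or 3 or any KO replicate, Nlrc3 without WT replicate 2, KO replicate 1 or KO replicate 3, and Pdlim2 without WT replicate 3, KO replicate 2 or KO replicate 3. Without WT replicate 2 or KO replicate 1, 3 of the 18 rose. Of the 4 that fell, 1 was left without WT replicate 2, WT replicate 3, KO replicate 1 or KO replicate 2, and 0 without KO replicate 3.

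Of 13 genes of the IKK complex and its upstream kinases, 3 rose and 1 fell, against 12.0% and 12.1% of all genes tested, with a median log2 fold change of 0.012. The IKK subunits were among the genes that did not pass, at log2 fold changes of -0.0089 for Chuk, 0.012 for Ikbkb and -0.018 for Ikbkg (edgeR adjusted p = 0.918, 0.867 and 0.811). Map3k8, a kinase that the p105 product of Nfkb1 holds inactive, rose by a log2 fold change of 0.28 (edgeR adjusted p = 0.00144). The TAK1-binding proteins gave 0.26 for Tab3 (adjusted p = 0.00165) and 0.18 for Tab1 (adjusted p = 0.0139), and Ripk1, a scaffold kinase of TNF signaling, fell by 0.17 on the log2 scale (adjusted p = 0.00457). Tab1 lost its call without WT replicate 2, KO replicate 1 or KO replicate 2. Without WT replicate 1, 2 of the 13 fell.

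Of 14 genes of the TNF receptor branch, 5 rose and 0 fell (edgeR), against 12.0% and 12.1% of all genes tested, with a median of 0.050 and, at an unadjusted p under 0.05, 5 higher and 3 lower. Tnfrsf4, which encodes the costimulatory receptor OX40, rose most (log2 fold change 0.34, SE 0.032, adjusted p = 5.74e-06 by edgeR). Birc2 and Birc3, the ubiquitin ligases that restrain the non-canonical branch, rose by 0.24 and 0.21 (adjusted p = 0.000334 and 0.00229). Without WT replicate 2, KO replicate 1 or KO replicate 2, and with library size only, 3 of the 14 rose. With library size only or without WT replicate 3, 3 fell, and with upper-quartile factors or the stricter filter, 1 fell.

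Of 28 known NF-kB target genes, 13 rose and 6 fell, against 12.0% and 12.1% of all genes tested, with a median of 0.081. Every gene that stands in more than 1 list is in this one, so its counts are not separate from those above. Zc3h12a, Nfkbie, Birc3 and Tnfrsf4, given above, are among those that rose, and the Treg markers Foxp3 and Il2ra among those that fell. Ccr7, a lymph node homing receptor, rose from 314 ± 6.06 to 592 ± 11.5 CPM (SD, n = 3 each, log2 fold change 0.91, SE 0.032, adjusted p = 5.24e-10 by edgeR). Gadd45b, a stress-response gene, rose by 0.62 (adjusted p = 7.73e-08). The targets that fell most were Cd40 by 0.76 on the log2 scale at about 1 CPM (1.27 ± 0.205 and 0.742 ± 0.0849 CPM in WT and KO, adjusted p = 0.0145), Ccnd2 by 0.22 (adjusted p = 0.000217) and Myc by 0.18 (adjusted p = 0.00333). Cd40 is also a B cell and dendritic cell gene and lost its call without KO replicate 1 or KO replicate 2. Without KO replicate 2, 2 of the 28 fell.

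Immediate early genes are a further list. Many of them, though not all, are switched on within minutes of T-cell receptor stimulation, a fast kinetics shared with Nfkbia and Tnfaip3. Of 20 genes, 14 rose and 2 fell, against 12.0% and 12.1% of all genes tested, with a median of 0.26. Fosl2 rose most (log2 fold change 1.41, SE 0.045, adjusted p = 3.28e-10 by edgeR), followed by the orphan receptor genes Nr4a2 at 0.98 and Nr4a3 at 0.89 (adjusted p = 2.77e-08 and 8.51e-10). Fos fell by 0.22 on the log2 scale and Egr3 by 0.19 (adjusted p = 0.000211 and 0.00317). With library size only, 4 of the 20 fell.

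**Figure D5:**
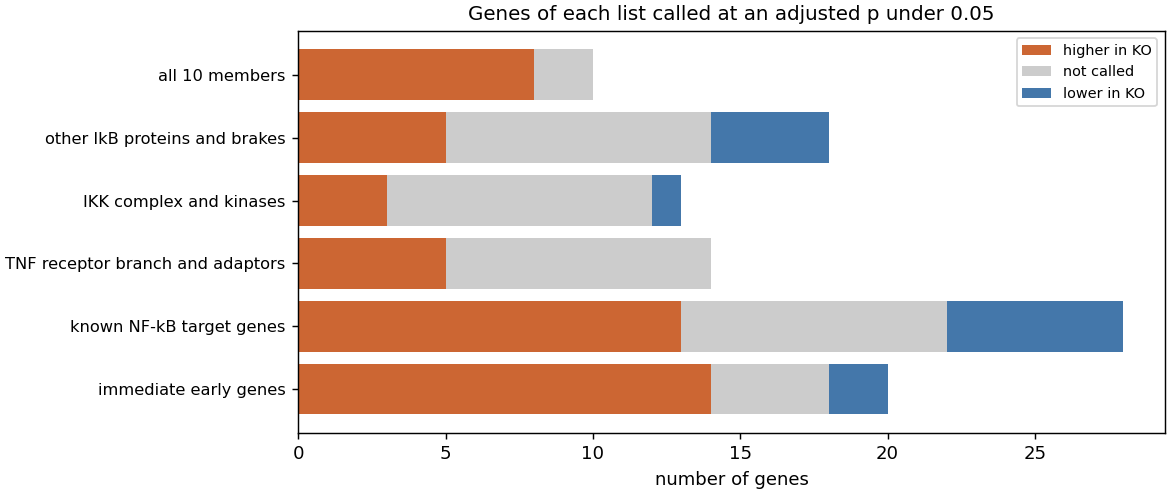
Number of genes (horizontal axis) of the 10 NF-kB genes and of each further list that rose, fell or did not pass at an adjusted p under 0.05 in KO against WT. The NF-kB genes (8 of 10) and the immediate early genes (14 of 20) hold the largest shares of genes that rose among these lists.

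Across the 6 libraries, the profile most like that of Rel among 7617 other genes whose log2 CPM averaged 4 or more was that of Il10, with a root mean square difference of 0.036 in log2 CPM centred on each gene's mean. Nr4a3 (0.037) and Ets2 (0.042) followed. Il10 went from 19.8 ± 0.860 to 37.7 ± 1.24 CPM (SD, n = 3 each). The 6 libraries fall into 2 groups, so a like difference between the groups is enough to give a small value.

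RNA of several other cell types moved with the groups. At an adjusted p under 0.05 by edgeR, 12.0% of all genes tested rose and 12.1% fell, beside which the counts below stand. Of 10 B cell markers, 10 were lower in KO, and their summed level was 72.4 to 79.0 CPM in WT and 32.4 to 33.9 CPM in KO, with Cd79a at 12.8 ± 0.733 and 4.87 ± 0.407 CPM and Cd79b at 16.3 ± 0.976 and 11.4 ± 0.258 CPM (SD, n = 3 each). Of 8 neutrophil markers, which include S100a8 (2.03 ± 0.453 and 0.135 ± 0.0502 CPM) and S100a9 (3.94 ± 0.398 and 0.199 ± 0.0967 CPM), 8 were lower, with sums of 17.7 to 23.6 CPM in WT and 1.01 to 1.47 CPM in KO. Of 6 red cell markers, 6 were lower, from 36.6 to 43.5 CPM in WT and 1.81 to 2.31 CPM in KO, with Hba-a1 at 21.9 ± 2.45 and 0.999 ± 0.121 CPM and Hba-a2 at 2.89 ± 0.328 and 0.0915 ± 0.0372 CPM. Of 12 macrophage, monocyte and dendritic cell markers, 7 were lower and 0 higher (edgeR, 9 and 1 at an unadjusted p under 0.05), with sums of 110.1 to 116 CPM in WT and 87.8 to 88.9 CPM in KO. Lyz2 was at 19.7 ± 1.78 and 7.36 ± 0.848 CPM, and Csf1r at 8.80 ± 1.02 and 10.3 ± 0.596 CPM. Of 6 CD8 T and NK cell markers, 1 was lower, Eomes, with sums of 26.8 to 27.7 CPM and 23.5 to 25.5 CPM, and Cd8a was at 0.464 ± 0.124 and 0.436 ± 0.114 CPM and Cd8b1 at 8.55 ± 0.621 and 8.20 ± 0.108 CPM. None of these markers was at 0 in all 6 libraries. B cells, neutrophils and dendritic cells also express NF-kB genes. In bulk RNA, fewer cells of a type and less RNA per cell cannot be told apart, and the part of these cells in the NF-kB results was not tested. The 10 NF-kB genes summed to 4691 to 4857 CPM in WT and 7040 to 7087 CPM in KO.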

How the data were processed

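The table that the authors deposited holds raw counts, 1 row per gene, for 6 libraries of sorted Tregs. The submitters' processing notes name HISAT2, DESeq2 and mm10 (the build GRCm38), and their versions, the counting tool for this table and its strand setting are not given in the sources used here. The methods of the study describe read processing for another set of libraries, from Foxp3Cre mice (SOAPnuke filtering, HISAT2 mapping to mm10 and TPM from StringTie), and whether the same steps preceded these counts is not stated. Of the 32285 rows, 40 repeated a symbol, none of them a gene named here, and a repeated name went to its most abundant row. Groups and replicate numbers came from the sample labels. In R 4.3.3, edgeR 4.0.16 scaled the counts by TMM and tested KO against WT across all 17307 genes kept by filterByExpr with the robust quasi-likelihood F-test (newer method), adjusted by Benjamini-Hochberg. A gene was called where its adjusted p was below 0.05. CPM refer to library sizes after TMM scaling, and errors are SD over libraries. The standard errors of log2 fold changes came from the F statistic. Log2 CPM used a prior count of 2. Exon lengths, gene positions and overlaps came from GENCODE (GRCm38) and promoters from RefSeq. The fits were tested on simulated data.

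The 10 genes and the lists were chosen with earlier results of these data known. Named genes were the 10 genes, Zfp335, up to 3 genes with the largest rise and 3 with the largest fall among those called in each further list, the 3 genes most like Rel and the first 2 markers of each cell type list. Xist, Ddx3y, Kdm5d, Uty, Eif2s3y, Ctla4, Chuk, Ikbkb, Ikbkg, Egr1, Egr2 and Eomes were named outside this rule after their values were seen. Each library counted as 1 sample. Replicate pairs differed by more than sampling noise (chi-square per gene at least 12.7), which may be technical and does not show that the libraries came from separate mice. Alternatives were RLE, upper-quartile and no scaling factors, DESeq2 1.42.0, edgeR's legacy method, no filter, a filter of 1 CPM in 3 libraries, the replicate number as a block, removal of mitochondrial, ribosomal protein, haemoglobin and immunoglobulin genes, leaving out each library, and the study's cutoffs. A further list of pathway genes is not reported here.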

Additional observations from a re-analysis of the deposited data

How the results depend on the processing

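All 10 NF-kB genes kept a positive log2 fold change in the 15 alternative fits, and the 8 called genes kept their calls in each of them, with Rel between 0.88 and 0.94, Tnfaip3 between 0.79 and 0.84, Nfkbia between 0.37 and 0.48 and Relb between 0.22 and 0.34. Of the 150 fits of single genes, 2 gained a call (Nfkb1 with DESeq2 and Bcl3 without WT replicate 3). The count that rose was 8 or 9 when each of the 6 libraries was left out in turn, and 2 with the study's cutoffs, which demand 1.5-fold. The count that fell was 0 in every fit. Zfp335 fell in every fit.

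The further lists, whose changes were mostly small, were less stable. Leaving out each library gave 3 to 7 genes that rose and 0 to 5 that fell among the other brakes, 2 to 4 and 1 to 2 among the IKK genes, 3 to 5 and 0 to 3 in the TNF receptor branch, 10 to 13 and 2 to 8 among the targets, and 13 to 15 and 2 to 3 among the immediate early genes. With library size only, 3 genes of the TNF receptor branch rose and 3 fell, and 4 immediate early genes fell. With upper-quartile factors 1 gene of the TNF receptor branch fell, and with the stricter filter also 1. Of the 23 other genes named by the rule in these lists, 18 kept their call in all 15 fits and none changed direction. Cd8a, a marker that was not called, was at -0.089, ranged from -0.29 to 0.16 with each library left out, and turned positive without WT replicate 1 (0.16) and without KO replicate 3 (0.11). The cause was not tested.

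A replicate block in the design left 8 of the 10 NF-kB genes higher and 0 lower, with Rel at 0.91 and Zfp335 at -3.02, and changed no call among the 10 genes. The check of this pairing gave correlations of 0.028, 0.0082 and 0.033 between the deviations of WT and KO libraries with the same number, all too low to treat them as paired. No sample was outside the groups, and with 3 libraries per group no single library was tested as an outlier. How many independent molecules stand behind the totals is unknown, which limits calls for weakly expressed genes such as Cd40.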
